A study of Mus musculus with 12 samples.

Results

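Complement was examined through 9 genes listed by symbol: the C1q chain genes C1qa, C1qb and C1qc, the component genes C2, C4b, C3 and Cfb, the inhibitor gene Serping1 and the receptor gene C3ar1. They are 9 of the 56941 genes in the deposited count table; each symbol belonged to a single Ensembl gene ID, and all 9 passed the filter on low counts. The RNA came from mandibular lymph nodes of mice lacking the microRNA miR-451a (KO) or wild type (WT), in a delayed-type hypersensitivity (DTH) model driven by the contact allergen DNFB. All mice were sensitized with 100 μl of 0.5% DNFB on the shaved abdomen on days 0, 1 and 2, so no node from an unsensitized animal is among the groups. The KO_DTH group (KO mice, left ear challenged with 20 μl of 1% DNFB on day 9, node taken 24 h later on day 10), the KO_se group (KO mice, sensitized, node taken on day 9), the WT_DTH group and the WT_se group (the same states in WT mice) had 3 libraries each. The challenge and the later day of harvest cannot be told apart, and the labels give no strain, age or sex and do not say how the KO was made or whether each library is 1 animal. The tests therefore use the spread between libraries, which may in part be technical. By their Xist and Ddx3y counts, every group held male and female libraries, so the 3 libraries of a group were not all from 1 animal.

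Complement is a cascade of plasma and cell-made proteins that marks targets for uptake and draws inflammatory cells. The classical pathway starts when C1q binds antibody on a target and goes on through C4 and C2 to cleave C3, the protein on which all routes meet; the alternative pathway builds its own C3-cleaving enzyme from C3 and factor B. Liver makes most of the circulating components, while macrophages and dendritic cells are the main source of C1q, and C3 fragments on antigen help B cells and follicular dendritic cells in lymph nodes to take it up.

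Library totals were 36.95 to 58.41 M estimated counts. The tissue label was checked on 12 node genes, and all were detected in every group, with the B cell gene Cd79a at means of 608 CPM (counts scaled to library size) in KO_DTH, 622 CPM in KO_se, 629 CPM in WT_DTH and 426 CPM in WT_se nodes. The libraries also carried salivary gland genes, in amounts that differed by group: 19 such genes held 4.14 to 9.38% of counts in KO_DTH nodes and 2.75 to 6.69% in KO_se nodes, and 2.05 to 3.32% in WT_DTH nodes and 6.86 to 14.3% in WT_se nodes. The 13 mitochondrially encoded genes held 5.57 to 15.7% of counts in KO_DTH, 11.9 to 16.0% in KO_se, 4.37 to 5.84% in WT_DTH and 13.8 to 19.1% in WT_se nodes. In WT nodes neither share overlapped between challenged and sensitized libraries, and in bulk RNA fewer cells of a type cannot be told from less RNA per cell. No row for the miR-451a gene itself was analysed here, so the KO label was not checked on it.

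Promoter sequences were at hand for 4 of the 9 genes and are shown because C1qb, C3 and C3ar1 were higher after challenge in both genotypes while C1qc, next to C1qb on chromosome 4, did not pass the test in either. Each is the RefSeq window (build GRCm38.p6) from 250 bases before to 50 bases after the transcript start, read 5′ to 3′ along the gene, with capitals marking matches to 6 short motifs searched on both strands: GAS-like TTCNNNGAA, ISRE-like (GAAA, any 2 bases, GAAA), AP-1-like TGANTCA, PU.1-like GAGGAAG, C/EBP-like TTGCNNAA and NF-kB-like (GGGA, any 2 bases, TTCC).
C1qb promoter at chr4:136886151-136886450, minus strand: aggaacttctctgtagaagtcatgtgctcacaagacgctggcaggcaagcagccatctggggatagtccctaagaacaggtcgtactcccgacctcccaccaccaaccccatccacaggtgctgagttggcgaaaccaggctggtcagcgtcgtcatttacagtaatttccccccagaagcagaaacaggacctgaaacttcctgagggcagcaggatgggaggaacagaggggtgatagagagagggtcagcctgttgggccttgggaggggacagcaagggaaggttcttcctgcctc
C1qc promoter at chr4:136892865-136893164, minus strand: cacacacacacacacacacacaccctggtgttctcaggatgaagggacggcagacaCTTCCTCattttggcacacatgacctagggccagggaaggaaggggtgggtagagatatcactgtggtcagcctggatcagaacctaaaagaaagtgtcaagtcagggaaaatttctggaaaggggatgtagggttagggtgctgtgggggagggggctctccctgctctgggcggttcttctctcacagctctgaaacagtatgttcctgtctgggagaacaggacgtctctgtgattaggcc
C3 promoter at chr17:57228087-57228386, minus strand: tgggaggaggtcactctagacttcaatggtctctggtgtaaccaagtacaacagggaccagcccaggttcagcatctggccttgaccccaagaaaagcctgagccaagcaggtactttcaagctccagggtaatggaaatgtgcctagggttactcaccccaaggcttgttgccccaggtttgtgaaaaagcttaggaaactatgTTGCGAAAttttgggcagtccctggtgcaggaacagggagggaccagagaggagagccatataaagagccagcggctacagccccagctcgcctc
C3ar1 promoter at chr6:122856108-122856407, minus strand: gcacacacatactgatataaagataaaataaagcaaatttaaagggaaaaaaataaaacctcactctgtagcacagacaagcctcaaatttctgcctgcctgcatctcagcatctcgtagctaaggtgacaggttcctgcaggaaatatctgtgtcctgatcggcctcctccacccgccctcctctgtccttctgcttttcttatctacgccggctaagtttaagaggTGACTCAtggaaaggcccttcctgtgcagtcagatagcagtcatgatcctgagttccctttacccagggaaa
The C1qc window held 1 PU.1-like match, written here as its reverse strand CTTCCTC and starting at position -194, against such a match in 13.6% of 32851 RefSeq promoters. The C3 window held 1 C/EBP-like match, TTGCGAAA at position -45 (10.8% of promoters), and the C3ar1 window 1 AP-1-like match, TGACTCA at position -22 (7.81% of promoters). The C1qb window held none of these letters, and no window held the GAS-like (8.3% of promoters), ISRE-like (3.44%) or NF-kB-like (1.47%) letters.

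The deleted microRNA is shown with its seed, bases 2 to 8, in capitals, because a match to it is what a direct target would be searched for.
mmu-miR-451a at chr11:78073186-78073207, plus strand: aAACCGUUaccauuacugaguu
The 3′ UTRs of the 9 genes were searched for AACGGTT, which pairs with those 7 bases, and held 0 matches. Among all 21153 genes with an annotated 3′ UTR, 412 (1.95%) held 1 or more.

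Per exonic length, C1qa, C1qb and Cfb had the highest means of the 9 genes in challenged nodes, and the 3 C1q chains in sensitized nodes. C1qb stood at 61.3 RPKM (CPM per kilobase of exon) in KO_DTH nodes and 27.8 RPKM in KO_se nodes, and at 53.6 RPKM in WT_DTH nodes and 32.6 RPKM in WT_se nodes. C1qa was at 58.1, 36.5, 46.1 and 40.6 RPKM in KO_DTH, KO_se, WT_DTH and WT_se nodes, and C1qc lower, at 21.8, 16.5, 20.4 and 17.9 RPKM. The lengths used joined all annotated exons, 1040 bases for C1qa and 1931 bases for C1qc, so the size of that gap depends on the annotation. Cfb was at 49.4, 9.51, 57.2 and 5.40 RPKM in the same 4 groups, so that its mean lay between those of C1qa and C1qc in KO_DTH nodes, above all 3 chains in WT_DTH nodes, where its range overlapped those of C1qa and C1qb, and under all 3 in the sensitized groups. C3 was at 20.1, 8.80, 22.3 and 6.74 RPKM, close to C1qc in the challenged groups. C4b, C3ar1, Serping1 and C2 were all scarce, with group means of 0.303 to 2.48 RPKM, and in KO_DTH and WT_DTH nodes the ranges of Serping1 and C2 overlapped.

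**Figure D1:**
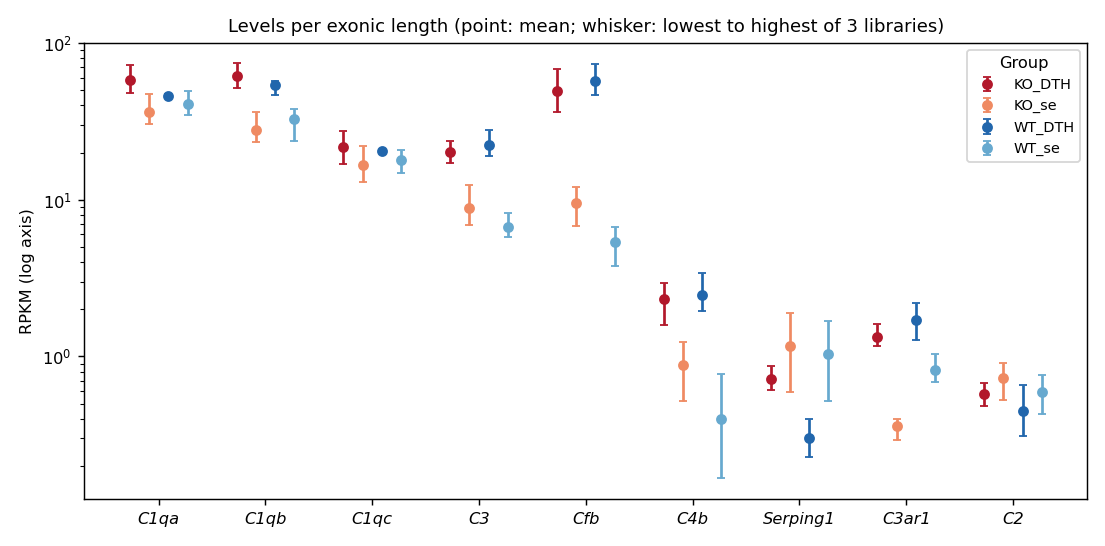
RPKM of the 9 complement genes on a log axis, in KO_DTH, KO_se, WT_DTH and WT_se nodes; points are means and whiskers run from the lowest to the highest of 3 libraries. C1qa and C1qb have group means between 27.8 and 61.3 RPKM, while Cfb has means of 49.4 and 57.2 RPKM in KO_DTH and WT_DTH nodes against 9.51 and 5.40 RPKM in KO_se and WT_se nodes.

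Of the 9 genes, more were called higher than lower in challenged nodes of both genotypes. By edgeR's quasi-likelihood test with Benjamini-Hochberg adjustment over 20034 genes, 5 of the 9 genes were higher and 0 lower in KO_DTH than in KO_se nodes, where 5.81% of all genes tested were called higher, 3.86% lower and 9.67% in either direction. In WT_DTH against WT_se nodes 5 were higher and 1 lower, where 9.77% of genes were called higher, 8.97% lower and 18.7% in either direction. Cfb, C3, C1qb and C3ar1 were called higher in both, C1qa in KO alone and C4b in WT alone. None of the 9 genes passed the interaction test below, except Cfb in 2 alternatives given there. Not passing that test does not show equal challenge effects in the 2 genotypes. The median log2 fold change of the 9 genes was 1.14 in KO and 0.72 in WT nodes, beside 0.00 and -0.01 over all genes. Per library, 6 of the 9 genes had all KO_DTH libraries above all KO_se libraries, as did 15.1% of all genes, and 5 had all WT_DTH libraries above all WT_se libraries, as did 17.6%.

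The largest change among the 9 genes was that of Cfb, the gene of factor B, the protease part of the alternative pathway's C3-cleaving enzyme. It had 193, 123 and 102 CPM in KO_DTH nodes, against 34.0, 27.4 and 19.1 CPM in KO_se nodes. In WT mice it had 206, 147 and 131 CPM in WT_DTH nodes, against 16.2, 18.9 and 10.7 CPM in WT_se nodes. Every challenged library lay above every sensitized one. The log2 fold change was 2.38 ± 0.29 (SE) in KO nodes, or 5.19-fold, with an adjusted p of 0.000255 by edgeR, and 3.41 ± 0.30 in WT nodes, or 10.6-fold, with an adjusted p of 2.71e-05. A predicted readthrough gene, Gm20547, shares exons with Cfb and C2, but held 41 counts over all libraries against 49305 for Cfb and 1262 for C2.

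C3, which encodes the central component cleaved by every pathway, changed less than Cfb. It had 121, 101 and 88.0 CPM in KO_DTH nodes, against 63.5, 35.6 and 36.8 CPM in KO_se nodes, and 144, 97.5 and 103 CPM in WT_DTH nodes, against 31.6, 42.4 and 29.9 CPM in WT_se nodes. The groups did not overlap in either genotype. The log2 fold change by edgeR was 1.19 ± 0.23 in KO nodes (adjusted p = 0.0059) and 1.73 ± 0.23 in WT nodes (adjusted p = 0.000386). Within each library the ratio of C3 to Cfb per exonic length was 0.345 to 0.474 in KO_DTH nodes against 0.712 to 1.06 in KO_se nodes, and 0.364 to 0.431 in WT_DTH nodes against 1.07 to 1.54 in WT_se nodes. The challenged-to-sensitized ratio of ratios was 0.376 (exact permutation test within genotypes, two-sided, p = 0.005, which is the smallest the 400 arrangements allow, and 0.0125 adjusted over 10 such tests).

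C4b encodes complement C4, whose cleavage gives the anchor of the classical C3-cleaving enzyme, and C2 encodes that enzyme's protease. C4b had 16.7, 14.1 and 9.04 CPM in KO_DTH nodes, against 7.06, 5.06 and 2.97 CPM in KO_se nodes. It had 19.4, 11.9 and 11.1 CPM in WT_DTH nodes, against 1.44, 4.39 and 0.953 CPM in WT_se nodes, where the second library stood well above the other two. The libraries did not overlap in either genotype, and the call held in WT nodes only, with 2.64 ± 0.50 (edgeR, adjusted p = 0.00328), beside 1.40 ± 0.47 in KO nodes (adjusted p = 0.0827). Without WT_se replicate 2, the high library, the WT value was 3.57 (adjusted p = 0.000814). The KO value passed the threshold, at an adjusted p of 0.0416, when only the 6 KO libraries were fitted. C2 had 1.88 to 2.62 CPM in KO_DTH nodes against 2.03 to 3.54 CPM in KO_se nodes, and 1.21 to 2.55 CPM in WT_DTH nodes against 1.67 to 2.95 CPM in WT_se nodes. Its log2 fold changes were -0.35 ± 0.34 (adjusted p = 0.60) and -0.40 ± 0.34 (adjusted p = 0.489) in KO and WT nodes. C2 and Cfb are neighbours in the MHC region of chromosome 17 and code for related proteases, and the ratio of Cfb to C2 per exonic length was 64.5 to 122 in KO_DTH nodes against 12.9 to 13.2 in KO_se nodes, and 70.6 to 191 in WT_DTH nodes against 6.40 to 13.3 in WT_se nodes. That ratio was 9.63-fold higher after challenge (exact permutation p = 0.005, adjusted 0.0125). The opposite-strand gene Zbtb12 overlaps 161 exonic bases of C2, and how the authors' counting treated strand is not given in the sources used here.

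C4b has a close copy, C4a, so reads of the pair may be shared between them and their separate values are uncertain. C4a had 3.64, 2.08 and 3.18 CPM in KO_DTH nodes, against 2.54, 2.41 and 1.22 CPM in KO_se nodes. It had 2.64, 2.94 and 2.69 CPM in WT_DTH nodes, against 2.33, 1.18 and 1.83 CPM in WT_se nodes. Its log2 fold changes were 0.53 ± 0.34 in KO nodes (edgeR, adjusted p = 0.379) and 0.63 ± 0.34 in WT nodes (adjusted p = 0.239). The ratio of C4a to C4b was 0.136 to 0.323 in KO_DTH nodes against 0.330 to 0.437 in KO_se nodes, and 0.125 to 0.227 in WT_DTH nodes against 0.246 to 1.77 in WT_se nodes. It was 0.341 times as high after challenge as before (exact permutation p = 0.005, adjusted 0.0125). Without WT_DTH replicate 1 the exact permutation p was 0.055.

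The C1q chains form 1 protein, in which chains A, B and C are assembled in equal numbers, and their genes lie side by side on chromosome 4. C1qb had 63.7, 80.6 and 55.8 CPM in KO_DTH nodes, against 39.7, 25.4 and 25.7 CPM in KO_se nodes. In WT mice it had 61.6, 62.7 and 50.8 CPM in WT_DTH nodes, against 39.5, 41.0 and 25.9 CPM in WT_se nodes. Challenged and sensitized libraries did not overlap, and C1qb rose by 1.14 ± 0.21 in KO (edgeR, adjusted p = 0.00438) and by 0.72 ± 0.21 in WT nodes (adjusted p = 0.0281). The WT call was lost without WT_se replicate 3 (0.54, adjusted p = 0.0991), WT_DTH replicate 1 (adjusted p = 0.0629) or WT_DTH replicate 2 (adjusted p = 0.0627).

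C1qa, the A chain, had 55.9, 75.5 and 49.9 CPM in KO_DTH nodes, against 49.2, 31.8 and 32.8 CPM in KO_se nodes. It had 47.6, 49.2 and 46.9 CPM in WT_DTH nodes, against 38.9, 51.4 and 36.2 CPM in WT_se nodes. The KO groups were set apart only narrowly, by the first KO_se library, and the WT groups overlapped. The KO difference of 0.67 ± 0.19 passed the threshold (edgeR, adjusted p = 0.0411) but lost it when KO_se replicate 2 (0.56, adjusted p = 0.158), KO_se replicate 3 (adjusted p = 0.142), KO_DTH replicate 1 (adjusted p = 0.0717) or KO_DTH replicate 2 (0.48, adjusted p = 0.157) was left out, and with only the KO libraries fitted (adjusted p = 0.084). The WT difference was 0.18 ± 0.19 (adjusted p = 0.572). C1qc, the C chain, had 32.6 to 53.2 CPM in KO_DTH nodes against 25.0 to 42.3 CPM in KO_se nodes and 38.4 to 39.9 CPM in WT_DTH nodes against 28.7 to 40.1 CPM in WT_se nodes, and its differences of 0.40 ± 0.20 (adjusted p = 0.254) and 0.19 ± 0.20 (adjusted p = 0.598) did not pass.

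Of the C1q messages, the balance of C1qb to C1qa differed between challenged and sensitized nodes. The 5 ratios were retested only without single libraries, not with salivary content, sex or the replicate block in the model. The ratio of C1qb to C1qa per exonic length was 1.02 to 1.09 in KO_DTH nodes against 0.747 to 0.770 in KO_se nodes, and 1.04 to 1.24 in WT_DTH nodes against 0.684 to 0.969 in WT_se nodes. All 6 challenged libraries lay above all 6 sensitized libraries, by 1.42-fold on average (exact permutation p = 0.005, adjusted 0.0125). The ratio of C1qc to C1qa was 0.352 to 0.389 in KO_DTH nodes against 0.424 to 0.467 in KO_se nodes, and 0.435 to 0.455 in WT_DTH nodes against 0.420 to 0.483 in WT_se nodes, and did not pass (0.909-fold, exact permutation p = 0.06, adjusted 0.12). None of the 5 ratios passed the test between genotypes (exact permutation p of 0.09 to 0.85). The levels of C1qa and C1qc followed each other most closely of all pairs among the 9 genes, with a root mean square difference of 0.13 between their centred log2 CPM over the 12 libraries, beside 0.29 for C1qa and C1qb and 2.08 for Cfb and Serping1.

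**Figure D2:**
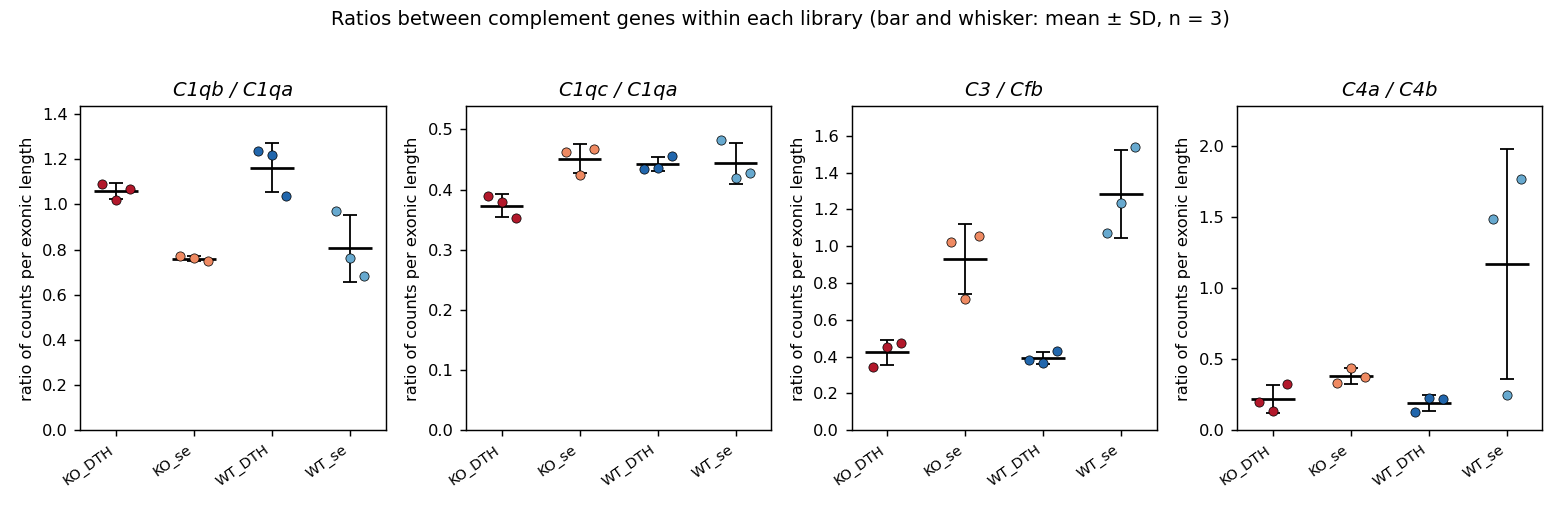
Ratios of counts per exonic length between pairs of complement genes in each library, for KO_DTH, KO_se, WT_DTH and WT_se nodes; bars and whiskers are mean ± SD (n = 3). The C1qb to C1qa ratio lies at 1.02 or more in all 6 challenged libraries and at 0.969 or less in all 6 sensitized ones, while C1qc to C1qa stays between 0.352 and 0.483.

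C3ar1, the receptor for the inflammatory fragment C3a on myeloid cells, was the receptor among the 9 genes. It had 5.21, 6.96 and 5.04 CPM in KO_DTH nodes, against 1.66, 1.72 and 1.26 CPM in KO_se nodes. It had 9.39, 7.11 and 5.52 CPM in WT_DTH nodes, against 4.43, 3.19 and 2.95 CPM in WT_se nodes. All challenged libraries were above all sensitized ones of their genotype, with increases of 1.89 ± 0.26 in KO (edgeR, adjusted p = 0.000742) and 1.06 ± 0.25 in WT nodes (adjusted p = 0.0113).

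Serping1 was the 1 gene called lower. It encodes C1 inhibitor, which blocks the proteases C1r and C1s, and had 1.55, 2.01 and 1.42 CPM in KO_DTH nodes, against 4.42, 2.28 and 1.39 CPM in KO_se nodes. It had 0.933, 0.532 and 0.650 CPM in WT_DTH nodes, against 2.07, 3.91 and 1.21 CPM in WT_se nodes. The KO groups overlapped and the WT groups did not, and these levels rest on 29 to 247 counts per library. Of all genes, 17.9% likewise had all WT_DTH libraries below all WT_se libraries. Serping1 fell by 1.77 ± 0.49 on the log2 scale in WT nodes (edgeR, adjusted p = 0.0245), and its difference in KO nodes was -0.70 ± 0.47 (adjusted p = 0.407). The WT call was lost without WT_se replicate 2, the library with the most Serping1 (-1.22, adjusted p = 0.121), WT_DTH replicate 2 (adjusted p = 0.0901) or WT_DTH replicate 3 (adjusted p = 0.0867).

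**Figure D3:**
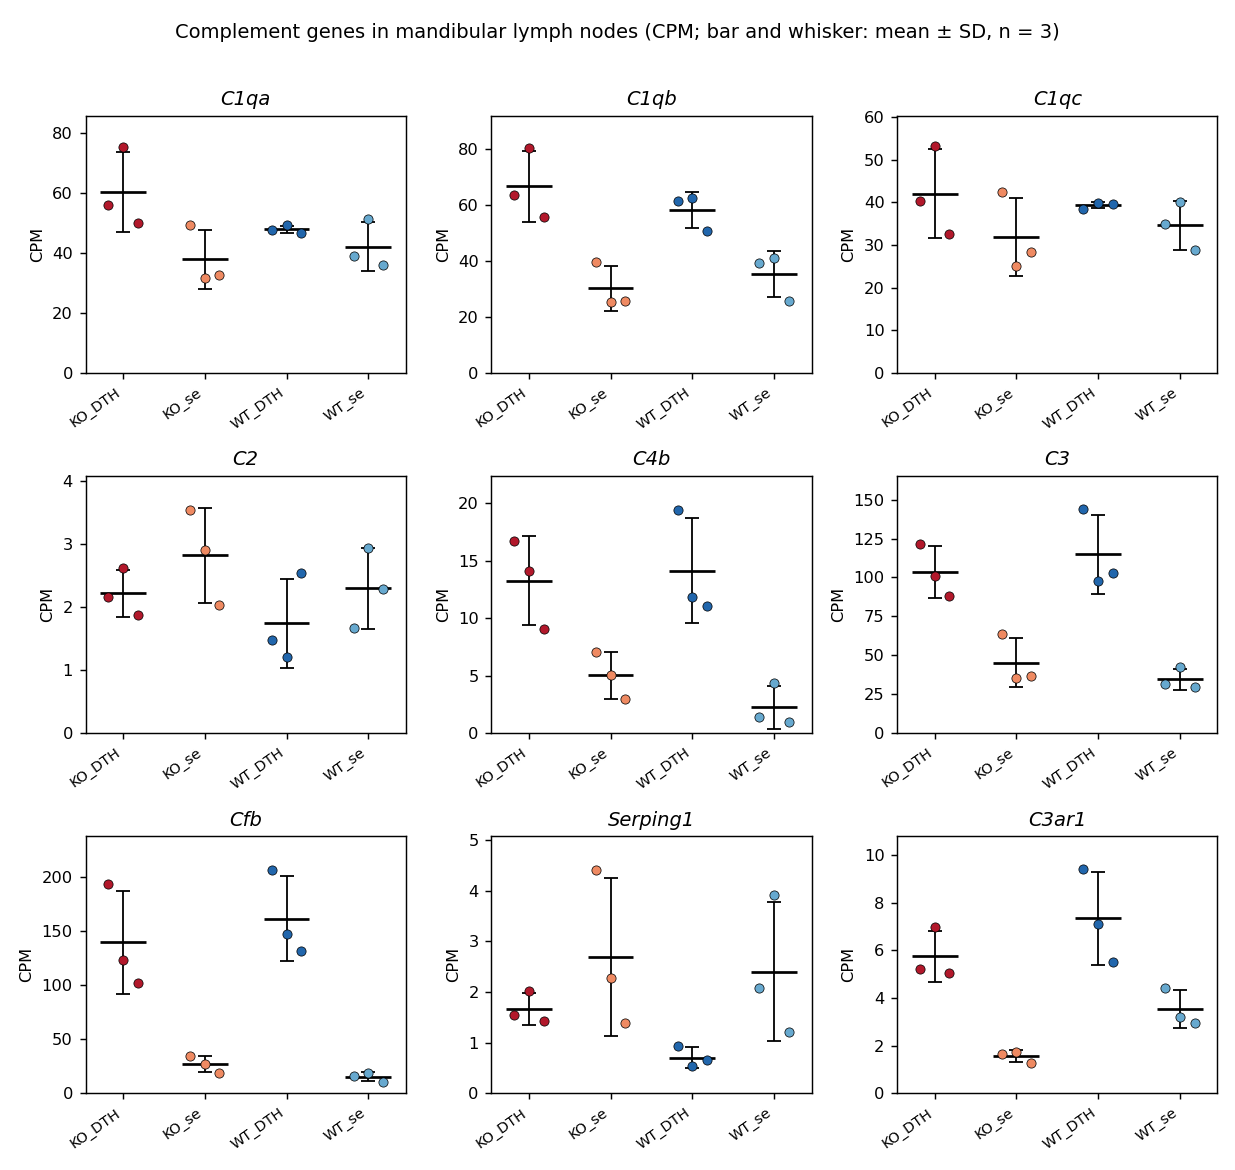
CPM of each complement gene in every library of KO_DTH, KO_se, WT_DTH and WT_se nodes, each panel with its own axis from 0; bars and whiskers are mean ± SD (n = 3). Cfb shows 102 to 193 CPM in KO_DTH against 19.1 to 34.0 CPM in KO_se nodes and 131 to 206 CPM in WT_DTH against 10.7 to 18.9 CPM in WT_se nodes, while C1qc and C2 overlap in both genotypes.

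The calls changed when salivary gland content was modelled, and more so in WT nodes, where that content did not overlap between the groups: 17 of the 19 salivary genes fell and 0 rose in WT_DTH nodes, against 0 and 2 in KO_DTH nodes. With a salivary score as covariate, 0 of the 9 genes were called in WT and 3 in KO nodes, and with the first 2 principal components of the salivary genes the counts were again 0 and 3. The WT value of Cfb was then 2.62 ± 0.54 (edgeR, adjusted p = 0.0801) and 2.44 ± 0.47 (adjusted p = 0.0536), and that of C3 1.37 (adjusted p = 0.307) and 1.21 (adjusted p = 0.341). That of C4b was 1.63 ± 0.95 (adjusted p = 0.579) and 1.27 ± 0.81 (adjusted p = 0.617), against 2.64 ± 0.50 without a covariate. Other WT calls were lost at values no nearer to 0: C1qb was at 0.88 ± 0.44 (adjusted p = 0.493) and 0.73 ± 0.34 (adjusted p = 0.452). C3ar1 was at 1.1 ± 0.54 (adjusted p = 0.491) and 1.08 ± 0.44 (adjusted p = 0.381), and Serping1 at -2.62 ± 1.00 (adjusted p = 0.354) and -2.92 ± 0.83 (adjusted p = 0.199). The SE of each of these WT values, those of Cfb and C3 included, was larger than without a covariate. Over all genes such fits called 25 and 73 in WT nodes. In KO nodes Cfb and C3ar1 passed in both fits, at 2.07 to 3.20 for Cfb and 1.60 to 2.15 for C3ar1 over all alternatives tried, those without single libraries included. C3 passed with the score alone and C1qb with the components alone. When the library of largest salivary share was left out of each group, Cfb, C3, C4b and Serping1 stayed past the threshold in WT nodes and Cfb, C1qb and C3ar1 in KO nodes.

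Immune cell markers and interferon-induced genes also moved with challenge, and erythroid genes were called in WT nodes only. Beside the counts that follow, 5.81% of all genes were called higher and 3.86% lower in KO nodes, and 9.77% and 8.97% in WT nodes. Of 12 monocyte genes, 8 rose and 0 fell in KO_DTH against KO_se nodes and 10 rose and 1 fell in WT_DTH against WT_se nodes. Their summed level was 1587 to 1992 CPM in KO_DTH nodes and 763 to 999 CPM in KO_se nodes, and 1606 to 2509 CPM in WT_DTH nodes and 571 to 699 CPM in WT_se nodes. All 20 interferon-induced genes listed rose in both genotypes, with median log2 fold changes of 2.36 in KO and 2.13 in WT nodes. Resident macrophage genes went both ways, 3 of 12 higher and 2 lower in KO and 5 higher and 3 lower in WT nodes, at summed levels of 134 to 176 CPM in KO_DTH, 167 to 238 CPM in KO_se, 144 to 176 CPM in WT_DTH and 105 to 185 CPM in WT_se nodes. Of the defining markers of that list, Siglec1 averaged 22.0 CPM in KO_DTH against 12.4 CPM in KO_se nodes and 30.0 CPM in WT_DTH against 11.0 CPM in WT_se nodes, whereas Cd209b averaged 7.79 CPM in KO_DTH against 59.7 CPM in KO_se nodes and 11.4 CPM in WT_DTH against 40.3 CPM in WT_se nodes. Of 12 stromal genes 1 fell in KO and 6 in WT nodes, with 0 rising in either. Stromal sums were 200 to 205 CPM in KO_DTH, 270 to 352 CPM in KO_se, 143 to 213 CPM in WT_DTH and 324 to 372 CPM in WT_se nodes. Among the stromal markers Pdpn had 0 counts in 1 or more libraries of both sensitized groups. Of 9 erythroid genes 0 fell in KO and 6 in WT nodes, with 0 rising in either. The erythroid sums were 1435 to 5472 CPM in KO_DTH, 3344 to 14812 CPM in KO_se, 2001 to 2238 CPM in WT_DTH and 7578 to 14788 CPM in WT_se nodes. The part of each of these in the complement values was not tested.

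Fewer calls were made between genotypes than between states. Between KO_se and WT_se nodes 1 of the 9 genes was called, C3ar1, which was lower in KO; 1.4% of all genes were called lower, 3.76% higher and 5.17% in either direction. C3ar1 had 1.66, 1.72 and 1.26 CPM in KO_se nodes, against 4.43, 3.19 and 2.95 CPM in WT_se nodes. The groups did not overlap, and 12.9% of all genes likewise had all KO_se libraries below all WT_se libraries. C3ar1 fell by 1.18 ± 0.26 on the log2 scale (edgeR, adjusted p = 0.0215). The call was lost without WT_se replicate 1 (-0.98, adjusted p = 0.0863), KO_se replicate 1 (adjusted p = 0.0587), KO_se replicate 2 (adjusted p = 0.0613) or KO_se replicate 3 (adjusted p = 0.0675), and with a salivary score or the 2 components as covariates (adjusted p of 0.23 and 0.157), at values of -1.16 and -1.18.

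Cfb was above WT_se in every KO_se library, at 34.0, 27.4 and 19.1 CPM against 16.2, 18.9 and 10.7 CPM, although the lowest KO_se library lay only just above the highest WT_se library. Such a separation was seen in 15.1% of all genes. The Cfb difference of 0.82 ± 0.28 did not pass (edgeR, adjusted p = 0.109), but it did with sex as covariate (0.82, adjusted p = 0.0018) and with the replicate block (0.80, adjusted p = 0.0133). These were the only 2 to pass of 10 alternatives other than leaving out single libraries. Over those 10 the Cfb value ran from 0.19 to 0.85 (edgeR or DESeq2, adjusted p up to 0.887). C4b differed by 1.16 ± 0.49 (edgeR, adjusted p = 0.186), and without WT_se replicate 2, the high library, by 2.08 (adjusted p = 0.0264). Over the same 10 alternatives C4b ran from 0.26 to 1.20 and passed in 0 (edgeR or DESeq2, adjusted p up to 0.917). The other 6 genes differed by -0.23 to 0.39 on the log2 scale, with adjusted p of 0.355 to 0.882.

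In challenged nodes edgeR called 0 of the 9 genes between KO_DTH and WT_DTH, where 0.599% of all genes were called (0.514% higher, 0.0849% lower); 1 of the 9, Serping1, had an unadjusted p below 0.05, and DESeq2 called 0. Serping1 had 1.55, 2.01 and 1.42 CPM in KO_DTH nodes, against 0.933, 0.532 and 0.650 CPM in WT_DTH nodes. The libraries did not overlap, but the difference of 1.24 ± 0.49 had an adjusted p of 0.262. C1qa also had all KO_DTH libraries above all WT_DTH libraries (0.34 ± 0.19, adjusted p = 0.463), and such a separation was seen in 10.1% of all genes. The other 7 genes lay between -0.35 and 0.35.

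The interaction test asked whether challenge acted differently in KO than in WT nodes, and edgeR called 0 of the 9 genes, against 2.11% of all genes (1.67% higher, 0.439% lower); 2 had an unadjusted p below 0.05, Cfb and C3ar1, and DESeq2 called 0. The log2 fold change in KO minus that in WT nodes was -1.03 ± 0.39 for Cfb (adjusted p = 0.198) and 0.83 ± 0.36 for C3ar1 (adjusted p = 0.266). For Cfb it passed with sex as covariate (-1.05, adjusted p = 0.0114) and with the replicate block (-1.03, adjusted p = 0.0482). It changed sign, and did not pass, with the salivary score and with the 2 salivary components. Over 9 alternatives other than leaving out single libraries the Cfb value ran from -1.09 to 0.75. For C4b, called in WT alone, the interaction was -1.25 ± 0.67 (edgeR, adjusted p = 0.401), and for C1qa, called in KO alone, 0.49 ± 0.26 (adjusted p = 0.409). Neither that pair nor Serping1 (1.07 ± 0.67, adjusted p = 0.501) was thus shown to respond differently by genotype. These 2 challenge comparisons and 2 genotype comparisons share libraries, so their values are not independent of each other.

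**Figure D4:**
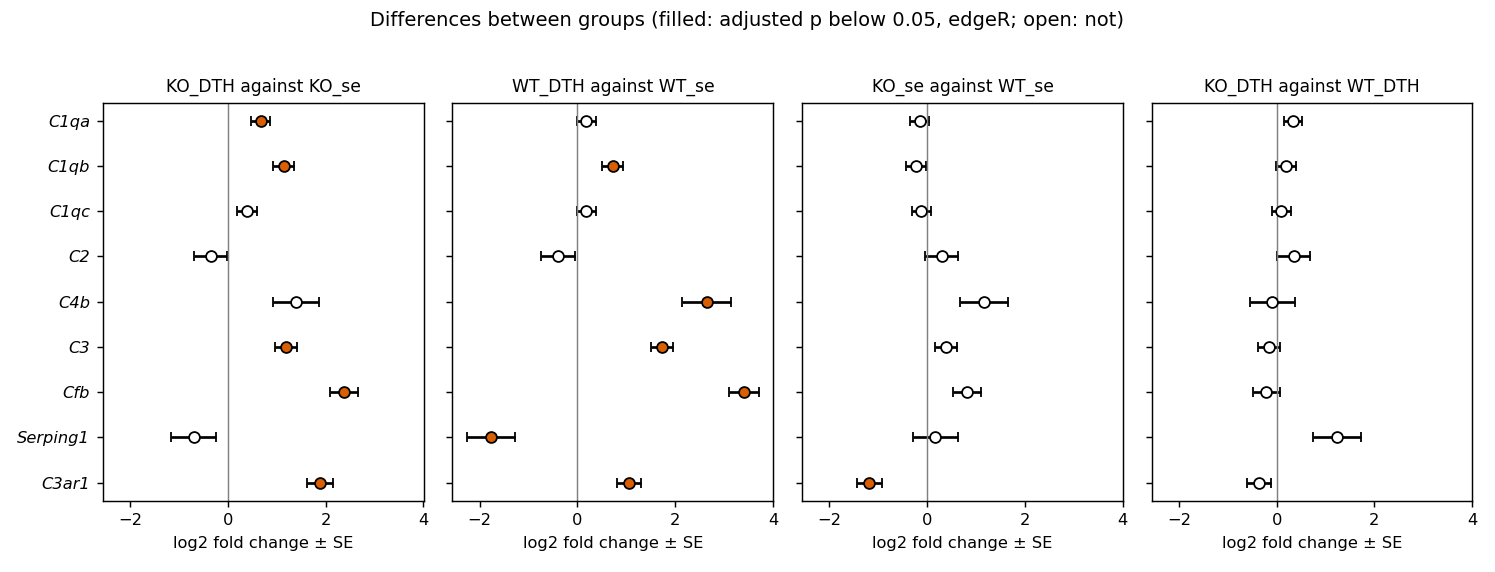
Log2 fold changes ± SE of the 9 complement genes in KO_DTH against KO_se, WT_DTH against WT_se, KO_se against WT_se and KO_DTH against WT_DTH nodes; filled points have an adjusted p below 0.05 by edgeR. Filled points number 5, 6, 1 and 0 in the 4 panels, and Cfb is farthest to the right in both challenge panels, at 2.38 and 3.41.

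The rest of the complement system was covered by 48 further genes, of which 32 passed the filter. The 16 that did not include the lectin pathway genes Masp1, Masp2, Mbl1 and Mbl2, the terminal components C7, C8a, C8b and C9, the macrophage receptor Vsig4 and the regulators Cfi and C4bp. Among the 32, edgeR called 4 higher and 2 lower in KO_DTH against KO_se nodes and 5 higher and 5 lower in WT_DTH against WT_se nodes. The shares of all genes called higher and lower were 5.81% and 3.86% in KO and 9.77% and 8.97% in WT nodes. The median log2 fold changes of the 32 were -0.34 in KO and -0.18 in WT nodes, beside 0.00 and -0.01 over all genes.

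Of 8 receptors and binding proteins tested, 4 were called higher and 0 lower in each genotype, beside the 5.81% and 9.77% of all genes called higher in KO and WT nodes. The log2 fold changes of the 4 not called, C5ar2, Cr2, Itgb2 and Cd93, were 0.36, -0.32, -0.07 and 0.0089 in KO nodes and 0.56, 0.58, -0.13 and 0.44 in WT nodes. Itgam, the alpha chain of complement receptor 3, had 50.5, 33.3 and 46.6 CPM in KO_DTH nodes against 20.0, 26.1 and 20.0 CPM in KO_se nodes, and 67.3, 44.3 and 39.6 CPM in WT_DTH nodes against 17.4, 21.6 and 16.7 CPM in WT_se nodes. No challenged library overlapped a sensitized one, and Itgam rose by 0.98 ± 0.21 in KO (edgeR, adjusted p = 0.0101) and by 1.44 in WT nodes (adjusted p = 0.000648). Itgax, the alpha chain of complement receptor 4 and a dendritic cell marker, rose by 0.94 (adjusted p = 0.0062) and 1.09 (adjusted p = 0.00154) in KO and WT nodes, C5ar1, the receptor for C5a, by 1.45 (adjusted p = 0.0467) and 1.63 (adjusted p = 0.0174), and C1qbp, a largely mitochondrial protein that can bind C1q, by 0.48 (adjusted p = 0.032) and 0.68 (adjusted p = 0.00311). Without single libraries the C5ar1 call was lost in 5 of 6 fits in KO (adjusted p up to 0.144) and 3 of 6 in WT nodes (up to 0.0764), and the C1qbp call in 5 of 6 in KO nodes (up to 0.127). With a salivary score or the 2 components as covariates 0 of the 10 further genes called in WT nodes kept their calls. There C5ar1 was then at 0.23 (edgeR, adjusted p = 0.955) and 0.10 (adjusted p = 0.976), and Itgam at 0.57 (adjusted p = 0.59) and 0.58 (adjusted p = 0.557). Itgax was at 0.83 and 0.66, and C1qbp at 1.02 in both. In KO nodes Itgam passed in both fits.

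The other initiation genes gave 0 calls among 11 tested in KO nodes, where 3 had an unadjusted p below 0.05, and in WT nodes 1 higher and 3 lower. Over all genes, 9.67% were called in KO nodes, and 9.77% were called higher and 8.97% lower in WT nodes. Cfp, the gene of properdin, which stabilizes the alternative pathway's enzyme, had 31.5, 30.1 and 30.1 CPM in WT_DTH nodes, against 16.5, 16.6 and 12.8 CPM in WT_se nodes. It rose by 1.00 ± 0.15 (edgeR, adjusted p = 0.000735), so that both Cfb and Cfp of the alternative pathway were higher in WT_DTH nodes. In KO nodes Cfp had 24.7, 26.7 and 36.8 CPM in KO_DTH and 25.4, 24.1 and 21.8 CPM in KO_se nodes, and KO_se nodes stood above WT_se nodes by 0.64 ± 0.15 (adjusted p = 0.0278), the only one of the 32 genes that edgeR called between those groups, though 4 of 6 fits without 1 library lost it (adjusted p up to 0.0991). C1s1, a mouse gene of the C1s protease, and Colec12, a scavenger receptor of the collectin family, fell in WT nodes by 1.69 (adjusted p = 0.0182) and 1.61 (adjusted p = 0.0188) on the log2 scale, and lost the call in 2 and 3 of 6 such fits (adjusted p up to 0.0679 and 0.076). Cfd, the gene of factor D, which cleaves factor B, was low throughout at 0 to 6.80 CPM, and its WT value of -5.10 ± 1.39 (adjusted p = 0.0228) rested on WT_se replicate 2, at 6.80 CPM beside 0.720 and 1.02 CPM in the other WT_se libraries. Without it the value was -3.41 (adjusted p = 0.159).

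Of 10 regulators 1 fell in KO and 2 in WT nodes, and of 3 terminal components 1 fell in KO nodes, beside the 3.86% and 8.97% of all genes called lower in KO and WT nodes. Cd55, decay-accelerating factor, which breaks up C3-cleaving enzymes on cell surfaces, had 134, 137 and 169 CPM in KO_DTH nodes against 234, 256 and 190 CPM in KO_se nodes, and fell by 0.63 on the log2 scale (edgeR, adjusted p = 0.0239). Clu, or clusterin, an inhibitor of the membrane attack complex, had 15.1, 24.1 and 27.0 CPM in WT_DTH nodes against 35.8, 48.9 and 39.9 CPM in WT_se nodes and fell by 0.91 (adjusted p = 0.0165). Cd59a, another inhibitor of that complex, was scarce and fell by 2.41 in WT nodes (adjusted p = 0.0367). Without single libraries the calls were lost in 4 of 6 fits for Cd55 (adjusted p up to 0.1), 2 of 6 for Clu (up to 0.0715) and 4 of 6 for Cd59a (up to 0.119). C6, part of the complex, had 0.219, 0.613 and 0.458 CPM in KO_DTH nodes against 3.16, 2.37 and 1.58 CPM in KO_se nodes and fell by 2.47 ± 0.44 (adjusted p = 0.00369). These C6 levels rest on 11 to 177 counts per library. The C6 call held in all 6 fits without 1 library. It was lost with a salivary score (-2.38, edgeR, adjusted p = 0.0714) and with the 2 components (-2.01, adjusted p = 0.106). Between KO_DTH and WT_DTH nodes 0 of the 32 were called by edgeR, 6 had an unadjusted p below 0.05 and DESeq2 called 1; for the interaction these counts were 0, 7 and 2.

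**Figure D5:**
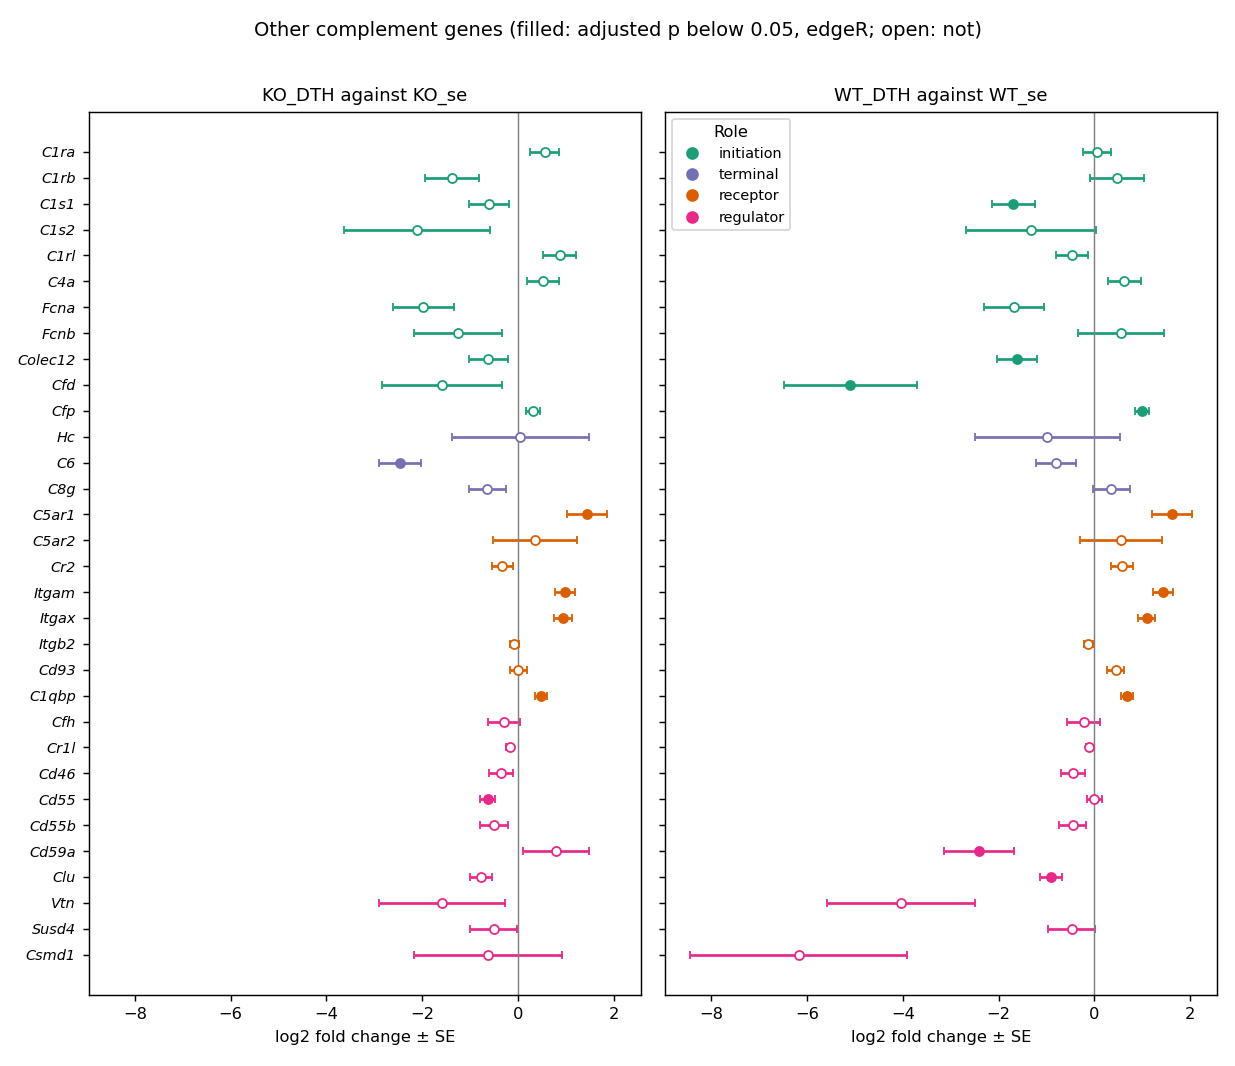
Log2 fold changes ± SE of the 32 further complement genes that were tested, coloured by role, in KO_DTH against KO_se and WT_DTH against WT_se nodes; filled points have an adjusted p below 0.05 by edgeR. The filled receptor genes all lie right of 0, from 0.48 to 1.45 in KO and from 0.68 to 1.63 in WT nodes, and the filled regulator genes all lie left of 0.

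Outside the complement system, likeness was measured as the root mean square difference of centred log2 CPM over the 12 libraries, among 10337 genes with a mean of at least 5 CPM. The closest to C3 were Cd68 (0.18), Aif1 (0.19), Fcgr3 (0.20), Fcer1g (0.20) and Tnfaip2 (0.21), against a median of 0.81 over all these genes. The closest to C1qa were Edem2 (0.18), H2-T22 (0.19), Slc39a1 (0.19), Borcs6 (0.20) and Akt1s1 (0.20), against a median of 0.39, and C1qa itself varied by only 0.34. The closest to Serping1 lay farther off, at 0.49 for the mitochondrial tRNA gene mt-Ts1 and 0.50 for Cbr2, followed by Gm6627 (0.52), mt-Te (0.53) and Gstm1 (0.53), against a median of 0.89.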

How the data were processed

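Estimated counts per gene were taken from the table the authors deposited; all values were whole numbers. Per the submitters' processing notes, fastp 0.23.2, HISAT2 2.2.1, StringTie 2.2.1 and GRCm39 were used; their settings, strand handling and treatment of reads that map to several places are not given in the sources used here. Per the labels' protocols, libraries were made from total RNA with a directional kit.

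Symbols (51948 of 56941 IDs) were read from a reference list of gene names by Ensembl ID. Exonic lengths, chromosomes, gene overlaps and 3′ UTRs came from GENCODE M21 (GRCm38, so not the table's build). Promoters and the miRNA were read from RefSeq GRCm38.p6. Genes were tested with edgeR 4.0.16 (scaled by TMM and filtered by filterByExpr at a minimum count of 10). There was 1 model with a mean per group over all 12 libraries (20034 genes, 8 residual degrees of freedom). Tests were two-sided and adjusted by Benjamini-Hochberg over all these genes at 0.05. The fit was also run on counts simulated from its own dispersions. Those counts held no salivary, sex or replicate structure, so that run cannot show how calls fare under it. CPM are edgeR's counts scaled to TMM-adjusted library totals, and RPKM divide them by exonic length. Ratios were tested by exact permutation of libraries within genotype or state. Replicate libraries differed beyond counting noise, with a chi-squared statistic over genes of 37.6 to 299 per degree of freedom. Alternatives were DESeq2 1.42.0 (test and size factors), other count filters, only the compared libraries, the replicate number as a block, sex, 3 treatments of salivary content and leaving out each library.

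The members, gene lists and tests were chosen with earlier results of these data known. The text names the 9 members and C4a in every comparison, up to 4 genes of each role that passed the threshold, and the 5 closest genes to C1qa, C3 and Serping1. R 4.3.3, Python 3.11.15 and matplotlib 3.10.9 were used.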

Additional observations from a re-analysis of the deposited data

How the results depend on the processing

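The number of complement genes called was 6 in WT_DTH against WT_se nodes, and became 0 with a salivary score, 0 with 2 salivary components and 4 to 6 without single libraries. In KO_DTH against KO_se nodes it was 5, and became 3 with the score, 3 with the components, 3 when each group lost the library with its largest salivary share, and 4 to 5 without single libraries. In KO_se against WT_se nodes it was 1, and became 0 under each of these 3 salivary settings, 2 with sex as covariate and 0 to 2 without single libraries. In KO_DTH against WT_DTH nodes it was 0 in every alternative. For the interaction it was 0, and became 1 (Cfb, -1.05, adjusted p = 0.0114) with sex as covariate and 0 without single libraries. With sex, Cfb also passed in KO_se against WT_se nodes (0.82, adjusted p = 0.0018) and C4b in KO_DTH against KO_se nodes (1.77, adjusted p = 0.00981). The cause was not tested.

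With the replicate block, the complement genes called numbered 2 in KO_se against WT_se nodes (Cfb added, 0.80, adjusted p = 0.0133) and 1 for the interaction (Cfb, -1.03, adjusted p = 0.0482), and C4b passed in KO_DTH against KO_se nodes (1.43, adjusted p = 0.0389). Deviations of same-numbered libraries correlated at -0.0984 to 0.0263 between states. Between genotypes they correlated at 0.0429 to 0.141, and each library correlated best with its own number, a hint of pairing from the data; replicate 1 was male and replicate 3 female in every group. The labels give the number no meaning and not every correlation passed 0.1, so pairing was not assumed.

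Directions reversed for differences that had not passed the test. With the salivary score, KO_se against WT_se nodes gave 0.0079 for C1qa, 0.12 for C1qc, -0.35 for Serping1 and -0.48 for C4a; KO_DTH against WT_DTH gave -0.29 for C1qc, 0.19 for C3, 0.95 for C4b and 0.54 for Cfb; the interaction gave -0.41 for C1qc, 0.013 for C3, 0.41 for C4b, 0.19 for Cfb and 1.52 for C4a; and WT_DTH against WT_se gave -0.43 for C4a. With the components, KO_se against WT_se gave 0.011 for C1qc, -0.63 for Serping1 and -0.53 for C4a; KO_DTH against WT_DTH gave 0.45 for C3, 1.69 for C4b and 0.94 for Cfb; the interaction gave 0.39 for C3, 1.43 for C4b, 0.75 for Cfb and 1.75 for C4a; WT_DTH against WT_se gave -0.41 for C4a and KO_DTH against KO_se 0.57 for Serping1. Without the library of largest salivary share C1qc was -0.10 in KO_DTH against WT_DTH and C2 -0.48 in the interaction, where C2 was -0.014 with no count filter. Without single libraries, KO_se against WT_se ranged from -0.38 to 0.019 for C1qa, -0.37 to 0.038 for C1qc, -0.38 to 0.72 for Serping1 and -0.013 to 0.48 for C4a; KO_DTH against WT_DTH from -0.11 to 0.22 for C1qc, -0.30 to 0.015 for C3, -0.31 to 0.18 for C4b and -0.089 to 0.31 for C4a; the interaction from -0.21 to 0.39 for C2 and -0.37 to 0.12 for C4a. The genotype difference in the Cfb to C2 ratio was -0.06 on the log2 scale, and 0.022 to 0.075 in the 4 such fits that reversed it.

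Over all genes, DESeq2 called 2984 against 1938 by edgeR in KO_DTH against KO_se nodes, 2301 against 1035 in KO_se against WT_se, 932 against 120 in KO_DTH against WT_DTH and 1240 against 422 for the interaction. The further complement genes called fell to 0 with either salivary covariate in WT nodes, against 10, and to 3 and 1 in KO nodes, against 6. Serping1 and C2 rest on 29 to 247 counts per library, C4b in WT_se nodes on 40 to 164, and counting error limits what these can show.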

Other observations

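Libraries of both sexes are present, which the labels do not give: 6 of the 12 had more Xist than Ddx3y counts (2 of 3 in both challenged groups and 1 of 3 in both sensitized groups) and are called female here, the other 6 male. When sex was added to the model, edgeR called 9 of 20034 genes (0.0449%) between male and female libraries. Of these, 8 lie on the sex chromosomes (Xist, Eif2s3x, Kdm5c, Kdm6a, Ddx3y, Eif2s3y, Kdm5d and Uty), and the ninth was Cfb on chromosome 17. Cfb was higher in male libraries by 0.69 ± 0.08 on the log2 scale (edgeR, adjusted p = 0.00522). In every group each male library lay above each female one: 193 CPM against 123 and 102 CPM in KO_DTH nodes, 34.0 and 27.4 CPM against 19.1 CPM in KO_se nodes, 206 CPM against 147 and 131 CPM in WT_DTH nodes, and 16.2 and 18.9 CPM against 10.7 CPM in WT_se nodes.

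C4b had the same order in all 4 groups (0.94 ± 0.27, adjusted p = 0.627) but did not pass, nor did C3 (0.41 ± 0.13, adjusted p = 0.699) or Serping1 (0.78 ± 0.32, adjusted p = 0.799). How many of all genes had that order in all 4 groups was not counted, so the order of Cfb and C4b cannot be weighed against it. C4a, known in mice as the sex-limited protein for its androgen-dependent expression in some strains, differed by 0.32 ± 0.25 (adjusted p = 0.922). Replicate 1 was male and replicate 3 female in every group, so sex and replicate number can hardly be told apart here. These values were looked at after the sex covariate was seen to add a call.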
